A study of Mus musculus with 12 samples.

Results

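The 3 E protein genes (Tcf3, Tcf4 and Tcf12), the 3 Id genes Id1, Id2 and Id3, and 4 genes of the complex built on the partner bHLH proteins (Lyl1, Tal1, Lmo2 and Ldb1) were read in common lymphoid progenitors (CLPs) with altered Firre. These 10 of the 47643 genes in the table were chosen by name for their place in the balance of activators and inhibitors. The choice was made with earlier results of these data known. All 10 passed the filter of a mean of at least 1 TPM. TPM is a measure of transcript level, the read number of a gene set to its length and to the library total. The study asked whether loss of the X-linked long noncoding RNA Firre changes gene expression in CLPs and whether Firre RNA supplied from a transgene restores it. CLPs were sorted by flow cytometry from the bone marrow of male mice 27 to 32 weeks old as Lin- Sca1 lo c-Kit lo IL7Rα+ cells, and each of 12 mice gave 1 poly(A)+ RNA-seq library, 4 in each of 3 groups. WT mice carried the intact locus. ∆Firre mice carried a germline deletion of the gene body and promoter, made from a floxed allele with CMV-Cre. Firre rescue mice carried the same deletion, a Firre cDNA transgene under a tet-responsive element, and a CAG-driven reverse tetracycline transactivator. The transactivator was expressed constitutively, and the mice were fed doxycycline. The study's methods give regular chow for its mice in general and name no diet for WT and ∆Firre mice of this experiment, so the transgenes and doxycycline cannot be told apart here. The Firre rescue libraries also form a library number range of their own, which cannot be told apart from the group. The lower of the other 2 ranges covers replicates 8 and 11 of both WT and ∆Firre, and the higher one WT replicates 6 and 10 and ∆Firre replicates 9 and 12.

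E proteins are basic helix-loop-helix (bHLH) transcription factors that pair with one another and bind the E-box, a short DNA motif, to activate genes of lymphoid development. Id proteins have the helix-loop-helix but no basic region, so that an E protein paired with an Id protein cannot bind DNA. The dose of E proteins relative to Id proteins is known to weigh on the choice between B-cell, T-cell and innate lymphoid fates in lymphoid progenitors. LYL1 and TAL1 are closely related bHLH proteins of blood progenitors that also pair with E proteins, and the adaptors LMO2 and LDB1 join these pairs to GATA factors in a larger complex.

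The genes lie on separate chromosomes for the most part. All are annotated as protein coding, and Tcf4 lies on chromosome 18. In the RefSeq gene table of GRCm38.p6 (the authors mapped to mm10, the browser name of GRCm38), Tcf3 spans chr10:80409541-80433976, Tcf12 chr9:71844252-72111893, Id1 chr2:152736251-152737410, Id2 chr12:25093799-25096092 and Id3 chr4:136143822-136145392. Lyl1 spans chr8:84701423-84704716, Tal1 chr4:115056426-115071755, Lmo2 chr2:103957903-103981878 and Ldb1 chr19:46031525-46048145.

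Firre was listed at 0 in every ∆Firre library, lay between 25.2 and 31.6 TPM in WT and between 59.9 and 174 TPM in Firre rescue, so the labels matched the deleted gene. The reads recovered from the TPM values ranged from 10687717 to 17709914 per WT library, from 13967410 to 17093464 per ∆Firre library, and from 25043316 to 31724795 per Firre rescue library. The number of genes above 0 was 15472 to 19877 in WT, 17910 to 19098 in ∆Firre CLPs and 15140 to 16835 in Firre rescue, where it lay below all ∆Firre libraries and overlapped with WT, and its part in the results was not tested. All 8 CLP markers were present in each group at a mean of at least 1 TPM, with summed levels of 6555 to 9209.5 TPM in WT, 7679 to 7982 TPM in ∆Firre CLPs and 9098 to 9921 TPM in Firre rescue. Dntt made up most of each sum. Among these markers Ly6d (1.36, adjusted p = 6.03e-05) and Rag1 (0.73, adjusted p = 0.00773) were higher and Kit (−0.49, adjusted p = 0.0137) was lower in Firre rescue than in ∆Firre. Against WT, 2 of the 8 markers were higher and 2 lower, these 3 among them in the same directions. Markers of antibody-secreting cells summed to 826 to 1549 TPM in WT, 1568 to 3350 TPM in ∆Firre CLPs and 224 to 369 TPM in Firre rescue. Of these 5 markers, 3 were lower and 1 (Sdc1) was higher than in ∆Firre. Against WT 2 were lower and none higher. Of 5 mature B cell markers, 3 were tested and 2 (Ms4a1 and Fcmr) were lower than in either group. Their sums were 6.80 to 11.2 TPM in WT, 5.61 to 14.3 TPM in ∆Firre CLPs and 0.437 to 7.68 TPM in Firre rescue, where Cr2 was listed at 0. Of 6 T cell markers, 3 were tested and 1 (Trbc1) was lower than in either group. Their sums were 328 to 501 TPM, 312 to 457 TPM and 217 to 294 TPM in the same order and Cd3e listed at 0 in Firre rescue. The lineage antibodies listed for bone marrow bind CD3, Gr-1, B220, TER-119 and CD11b, so cells that carry these proteins were to be left out of the sort. Of 5 eosinophil markers 1 (Siglecf) was lower than in ∆Firre and none than in WT, and their sums of 24.8 to 127 TPM, 53.2 to 188 TPM and 6.79 to 206 TPM overlapped. Of 6 myeloid markers 1 (Mpo) was lower than in either group, and their sums of 407 to 1378 TPM, 339 to 1720 TPM and 275 to 1501 TPM overlapped. The other marker lists are given beside the results they accompany, and the part of any of these cells in the levels was not tested. Of all tested genes, 8.58% were higher and 19.3% lower in Firre rescue than in ∆Firre, and 4.82% were higher and 19.4% lower than in WT. In bulk RNA, fewer cells of a type and less RNA per cell cannot be told apart.

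In WT CLPs, Id2 had the highest mean level of the 10 genes (324 TPM), followed by Lmo2 (245 TPM) and Ldb1 (213 TPM), and the libraries of each neighboring pair in that order overlapped. Lyl1 (148 TPM) lay below Ldb1 and above Tcf3 (84.9 TPM) in every WT library. Tcf3 overlapped with Tcf4 (66.0 TPM), Tcf4 lay above Tal1 (36.3 TPM), and Tal1 overlapped with Tcf12 (35.3 TPM). Id1 (10.05 TPM) and Id3 (4.30 TPM) were the lowest and overlapped with each other. The order in ∆Firre CLPs was the same except that Tcf4 (59.0 TPM) stood above Tcf3 (56.7 TPM) and Tcf12 above Tal1, each pair with overlapping libraries. In Firre rescue CLPs, Ldb1 (228 TPM) and Lyl1 (196 TPM) came first, and Id2 fell to the fourth place (161 TPM) with libraries that overlapped those of Tcf3 (140.5 TPM) just below it.

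**Figure D1:**
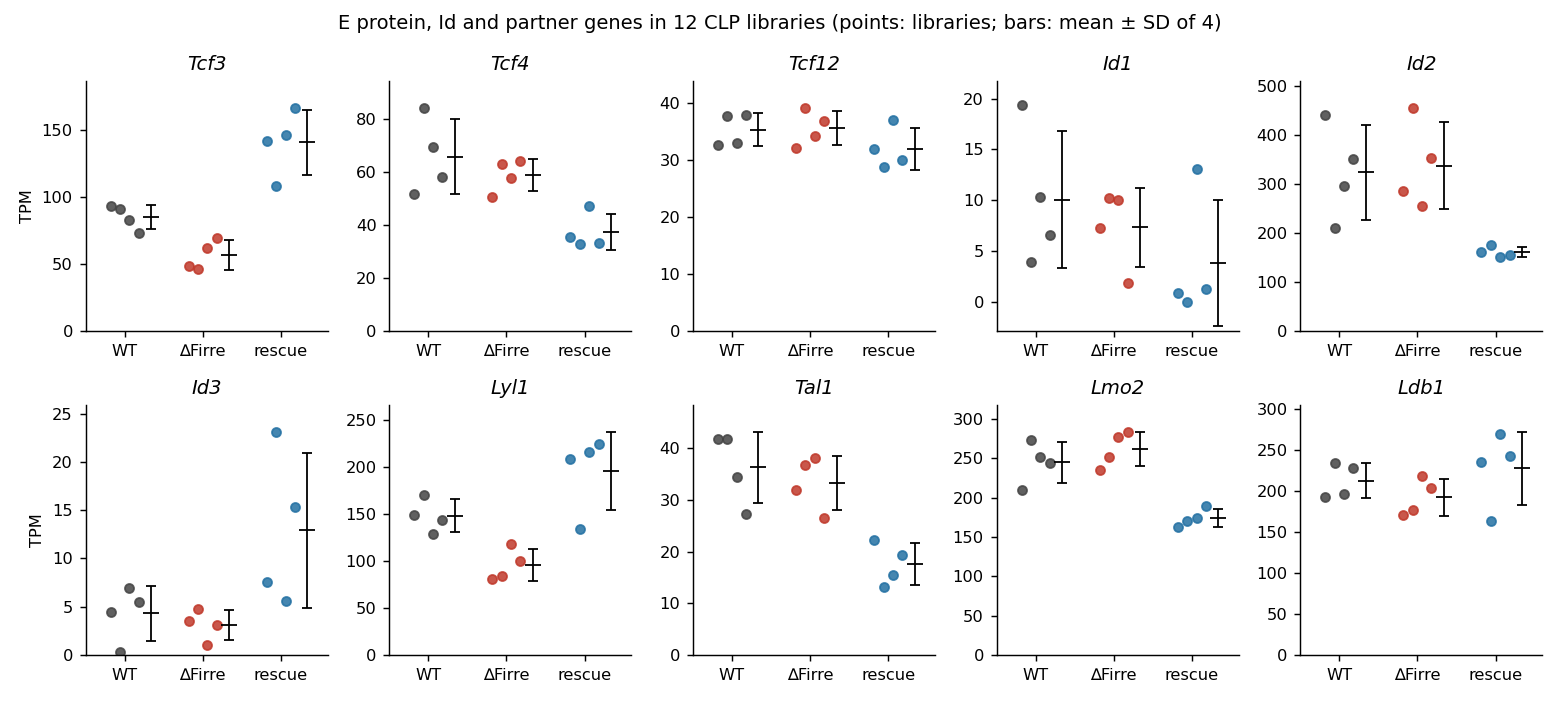
TPM of each of the 10 genes (vertical axis, linear, 1 panel per gene with its own scale) in the 4 WT, 4 ∆Firre and 4 Firre rescue libraries; points are libraries, and lines with bars are the mean ± SD. Tcf3 is lower in all ∆Firre libraries than in all WT libraries and higher in all Firre rescue libraries than in either, while the 4 Firre rescue libraries lie below all others for Id2, Tal1 and Lmo2.

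The 250 bases before the RefSeq start were searched for the E-box CANNTG, which reads the same on both strands, in the 12 windows found for 7 of the 10 genes. Such a match occurs in 66.2% of all 32851 promoter windows, while the particular E-boxes CAGCTG and CAGGTG (searched on both strands, as CACCTG on the other) occur in 13% and 17.2%. An E-box was found in the windows of Tcf3 (CACTTG), Id2 (CAGCTG), Lyl1 (CACCTG) and in some windows of Tcf12 and Ldb1, and these letters were absent from the windows of Id3 and Tal1. Tcf3, Id2 and Lyl1 are shown because the results turn on their levels. The capitals mark the E-box, and the match is a description of the letters, not a bound site. The stretch of Tcf3 is the 30 bases around its E-box (chr10:80433672-80433701, minus strand), with the first base of the motif 54 bases before the RefSeq start and inside the annotated span of the gene. For Id2 the whole window is given (chr12:25096093-25096342, minus strand, motif 196 bases before the start), and for Lyl1 the part outside the gene (chr8:84701207-84701422, plus strand, motif 235 bases before the start).
Tcf3: agtgggcgtggtCACTTGggggcgtggctt
Id2: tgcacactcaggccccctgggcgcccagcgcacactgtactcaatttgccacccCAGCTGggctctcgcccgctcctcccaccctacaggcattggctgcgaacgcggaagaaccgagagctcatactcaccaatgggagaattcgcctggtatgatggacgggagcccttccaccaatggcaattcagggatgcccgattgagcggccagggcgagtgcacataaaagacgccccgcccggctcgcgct
Lyl1: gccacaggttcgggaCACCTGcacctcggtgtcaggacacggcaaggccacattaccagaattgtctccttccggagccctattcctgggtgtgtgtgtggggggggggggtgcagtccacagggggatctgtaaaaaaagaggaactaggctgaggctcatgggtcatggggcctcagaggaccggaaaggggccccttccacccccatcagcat

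The E protein genes differed from one another in how they varied between the groups. Tcf3, which encodes the main E protein of early B-lineage cells, measured 93.1, 90.6, 82.7 and 73.1 TPM in WT replicates 6, 8, 10 and 11 (84.9 ± 9.0, SD, n = 4), 48.5, 46.7, 62.1 and 69.7 TPM in ∆Firre replicates 8, 9, 11 and 12 (56.7 ± 11, n = 4), and 141, 108, 146 and 166 TPM in Firre rescue replicates 1 to 4 (140.5 ± 24.1, n = 4). Every ∆Firre library was below every WT library, and every Firre rescue library was above all of them. In ∆Firre against WT, the difference on the log2(TPM + 1) scale was −0.59 (95% confidence interval −0.92 to −0.25, unadjusted p = 0.00231), which did not pass the limma test across all 14479 genes (adjusted p = 0.889). The difference was −0.56 within the lower library number range and −0.61 within the higher one, with 2 libraries of each genotype in both. In Firre rescue, Tcf3 was higher by 1.30 (0.96 to 1.63, adjusted p = 0.000243) than in ∆Firre and by 0.71 (0.38 to 1.04, adjusted p = 0.00977) than in WT. With an adjustment of every library for exon GC content (the share of G and C bases), these differences were 0.70 (adjusted p = 0.00206) and 0.33 (adjusted p = 0.0796), and that of ∆Firre from WT was −0.37.

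Tcf4, the E protein gene known for its role in plasmacytoid dendritic cells, went the other way in Firre rescue. Its levels were 51.8, 84.4, 69.4 and 58.3 TPM in WT (66.0 ± 14.3, n = 4), 50.6, 63.3, 58.0 and 64.1 TPM in ∆Firre (59.0 ± 6.21, n = 4), and 35.7, 33.1, 47.3 and 33.5 TPM in Firre rescue (37.4 ± 6.71, n = 4). WT and ∆Firre overlapped, and the 4 Firre rescue libraries lay below both. Tcf4 fell by 0.65 in Firre rescue against ∆Firre (−1.0 to −0.31, adjusted p = 0.0150) and by 0.79 against WT (−1.14 to −0.45, adjusted p = 0.00682), while ∆Firre and WT differed by −0.14 (−0.49 to 0.21). The summed level of 7 plasmacytoid dendritic cell markers overlapped between groups, at 512 to 678 TPM in WT, 466 to 558 TPM in ∆Firre CLPs and 504 to 669 TPM in Firre rescue, with the marker Klk1 listed at 0 throughout. Of the 6 tested, Bst2 (0.42, adjusted p = 0.0621) and Irf8 (0.36, adjusted p = 0.0911) were higher and Ccr9 (−0.75, adjusted p = 0.0649) was lower in Firre rescue than in ∆Firre, and none was called against WT. With the GC adjustment, Tcf4 differed from ∆Firre by −0.45 (adjusted p = 0.102) and from WT by −0.66 (adjusted p = 0.0202).

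Tcf12, which encodes the E protein HEB of early T-lineage cells, showed the least variation. It ranged from 32.5 to 37.9 TPM in WT, from 32.1 to 39.1 TPM in ∆Firre, and from 28.8 to 37.0 TPM in Firre rescue, with all groups overlapping. The differences were 0.01 (−0.24 to 0.26) in ∆Firre against WT, −0.15 (−0.40 to 0.10) in Firre rescue against ∆Firre, and −0.14 (−0.39 to 0.11) in Firre rescue against WT, and none passed the test. The last of these turned to 0.04 after median-ratio rescaling and to 0.03 after quantile normalization.

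Together, the E protein genes summed to 186 ± 18.8 TPM in WT, 151 ± 16.2 TPM in ∆Firre CLPs and 209.8 ± 28.3 TPM in Firre rescue. Tcf3 made up 45.7 ± 4.58% of that sum in WT, 37.3 ± 4.37% in ∆Firre CLPs and 66.8 ± 4.23% in Firre rescue (SD, n = 4 each). The Tcf3 share of the 3 groups did not overlap, with 42.6 to 52.5% in WT, 31.3 to 40.8% in ∆Firre CLPs and 63.4 to 72.4% in Firre rescue. The share of Tcf4 was 35.2%, 39.0% and 17.9% in the same order, and that of Tcf12 was 19.1%, 23.6% and 15.3%.

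Id2 was the dominant Id gene and carried nearly the whole Id level. Id2 limits E protein activity and is required for NK cells and other innate lymphoid cells. Its levels were 439.9, 209.6, 296 and 351 TPM in WT replicates 6, 8, 10 and 11 (324 ± 96.7, n = 4), 285, 455, 254 and 354 TPM in ∆Firre replicates 8, 9, 11 and 12 (337 ± 89.1, n = 4), and 161, 175, 152 and 155 TPM in Firre rescue (161 ± 10.1, n = 4). WT and ∆Firre libraries spread widely and overlapped, whereas the Firre rescue libraries were close together and below all 8 others. Id2 fell by 1.03 in Firre rescue against ∆Firre (−1.48 to −0.58, adjusted p = 0.00621) and by 0.96 against WT (−1.41 to −0.50, adjusted p = 0.0100), and differed by 0.07 (−0.38 to 0.53) between ∆Firre and WT.

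Summed markers of cells that are known to use Id2, and of basophils and mast cells, were also lowest in Firre rescue. So were the sums of antibody-secreting cell, T cell, megakaryocyte and stem cell markers. The sort was set to keep Lin- Sca1 lo c-Kit lo IL7Rα+ cells, and whether any of these other cells passed it was not tested. The summed level of 6 NK cell markers was 129 to 444 TPM in WT, 212 to 368 TPM in ∆Firre CLPs and 55.7 to 88.6 TPM in Firre rescue, where 5 of 6 were lower than in ∆Firre and 3 of 6 lower than in WT. Of 8 markers of group 2 innate lymphoid cells (ILC2), 4 passed the filter and all 4 were lower in Firre rescue than in ∆Firre and 3 of 4 lower than in WT. The summed levels of the 8 were 72.6 to 110.2 TPM in WT, 87.3 to 112 TPM in ∆Firre CLPs and 42.1 to 66.3 TPM in Firre rescue. Areg was listed at 0 throughout, and Il13, Il5 and Klrg1, which were listed at 0 in Firre rescue, had means under 1 TPM in the other groups. All 7 basophil and mast cell markers were lower in Firre rescue than in either group, with sums of 1063 to 9063 TPM in WT, 2939 to 4335 TPM in ∆Firre CLPs and 64.1 to 142 TPM in Firre rescue. Beside these counts, 19.3% of all tested genes were lower in Firre rescue than in ∆Firre and 19.4% lower than in WT. Within WT, replicates 6, 11, 10 and 8 took the same order from high to low for that sum (9063, 2796, 1807 and 1063 TPM) as for Id2, whereas in ∆Firre the highest sum was in replicate 8 (4335 TPM) and the highest Id2 in replicate 9. The NK cell sum was highest in replicate 11 of WT (444 TPM) and in replicate 9 of ∆Firre (368 TPM). The part of any of these cells in the level of Id2 was not tested.

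Id1 and Id3 were low and varied widely between mice of a group. Id1, a target of BMP signaling, measured 19.4, 3.92, 10.3 and 6.56 TPM in WT, 7.25, 10.2, 10.02 and 1.85 TPM in ∆Firre, and 0.849, 0, 13.1 and 1.28 TPM in Firre rescue. Firre rescue replicate 3 stood among the WT libraries and the other 3 lay below all WT and ∆Firre libraries. No comparison of Id1 passed the test, with differences of −0.39 (−1.99 to 1.21) in ∆Firre against WT, −1.40 (−3.003 to 0.20, adjusted p = 0.204) in Firre rescue against ∆Firre and −1.79 (−3.39 to −0.19, adjusted p = 0.117) against WT. Without Firre rescue replicate 3, Id1 was called lower in Firre rescue, with differences of −2.18 (adjusted p = 0.0219) from ∆Firre and −2.57 (adjusted p = 0.0109) from WT.

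Id3, which is induced by antigen receptor signals in lymphocytes, was the 1 Id gene that was higher in Firre rescue. It measured 4.46, 0.318, 6.96 and 5.46 TPM in WT (4.30 ± 2.85, n = 4), 3.55, 4.75, 0.990 and 3.09 TPM in ∆Firre (3.09 ± 1.57, n = 4), and 7.58, 23.1, 5.59 and 15.3 TPM in Firre rescue (12.9 ± 8.01, n = 4). All Firre rescue libraries were above all ∆Firre libraries, while replicate 3 overlapped with WT. The difference from ∆Firre was 1.68 (0.42 to 2.93, adjusted p = 0.0619) and that from WT was 1.48 (0.22 to 2.73, adjusted p = 0.101). The call against ∆Firre was lost without ∆Firre replicate 11 (adjusted p = 0.159) or 12 (0.109), and without Firre rescue replicate 2 (0.145) or 4 (0.138), and with the GC adjustment (adjusted p = 0.129). Between 2 and 462 reads lay behind each Id3 value and between 0 and 161 behind each Id1 value.

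**Figure D2:**
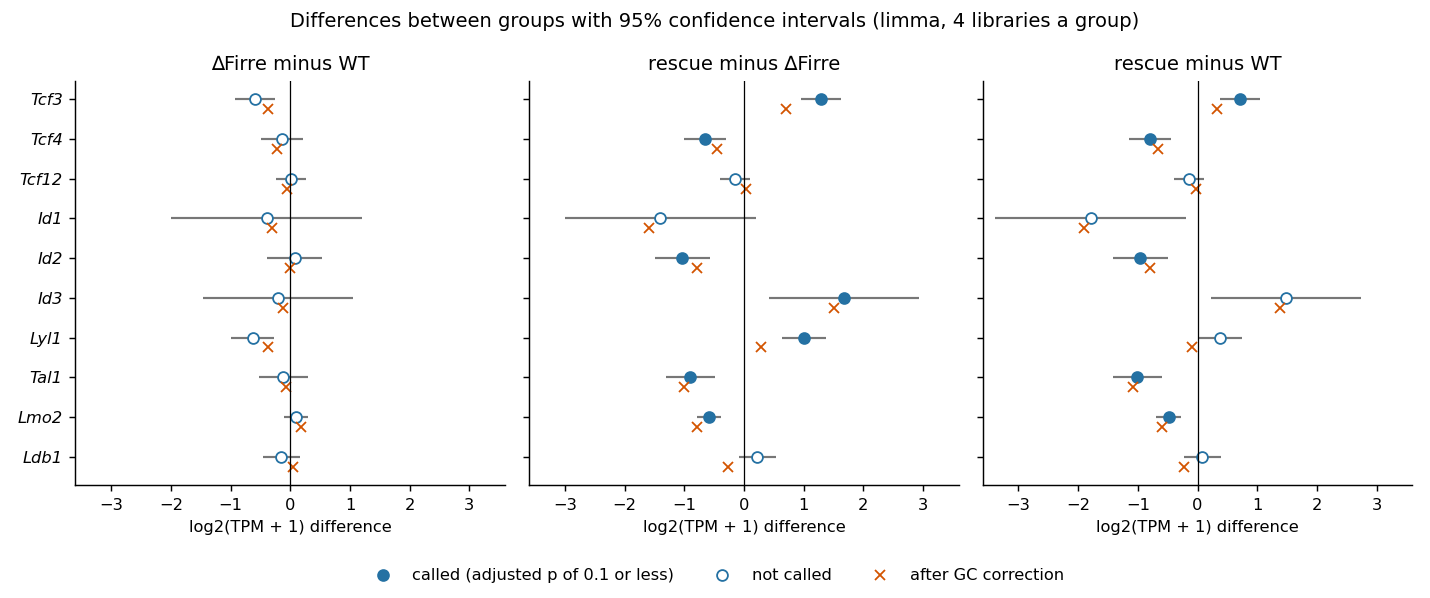
Log2 differences on the log2(TPM + 1) scale (horizontal axis) with 95% confidence intervals for the 10 genes for each pair of groups; filled points passed the limma test at an adjusted p of 0.1 or less, open points did not, and crosses give the difference after the GC correction. No gene is filled in the first comparison, 7 are in the second and 5 in the third.

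The ratio of Id to E protein transcripts put these changes on one scale. Dividing the summed Id TPM by the summed E protein TPM gave 2.61, 1.01, 1.69 and 2.14 in WT replicates 6, 8, 10 and 11 (1.86 ± 0.685, n = 4), 2.26, 3.16, 1.72 and 2.104 in ∆Firre replicates 8, 9, 11 and 12 (2.31 ± 0.608, n = 4), and 0.812, 1.16, 0.741 and 0.746 in Firre rescue replicates 1 to 4 (0.866 ± 0.201, n = 4). The ratio lay above 1 in all WT and ∆Firre libraries and below 1 in 3 of the 4 Firre rescue libraries, and Firre rescue replicate 2 overlapped with WT replicate 8. Because the genes were chosen for this ratio, it is given as a description without a test. The summed Id level was 338 ± 104 TPM in WT, 348 ± 90.5 TPM in ∆Firre CLPs and 177 ± 13.6 TPM in Firre rescue, and all Id sums of Firre rescue (169.8 to 198 TPM) lay below all others (214 TPM or more). The E protein sums of Firre rescue (170.0 to 230.4 TPM) overlapped with those of WT (169 to 213 TPM). Id2 supplied 96.0% of the Id sum in WT, 96.9% in ∆Firre CLPs and 90.7% in Firre rescue. For the leading gene of each family, Id2 over Tcf3 was 3.85 ± 1.17 in WT, 6.20 ± 2.48 in ∆Firre CLPs and 1.18 ± 0.301 in Firre rescue. This last ratio was not adjusted for GC content, and exons of Id2 and Tcf3 lay at GC percentiles 13.7 and 97.6 of the tested genes. With the GC adjustment, the differences of both genes in Firre rescue from ∆Firre were smaller.

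**Figure D3:**
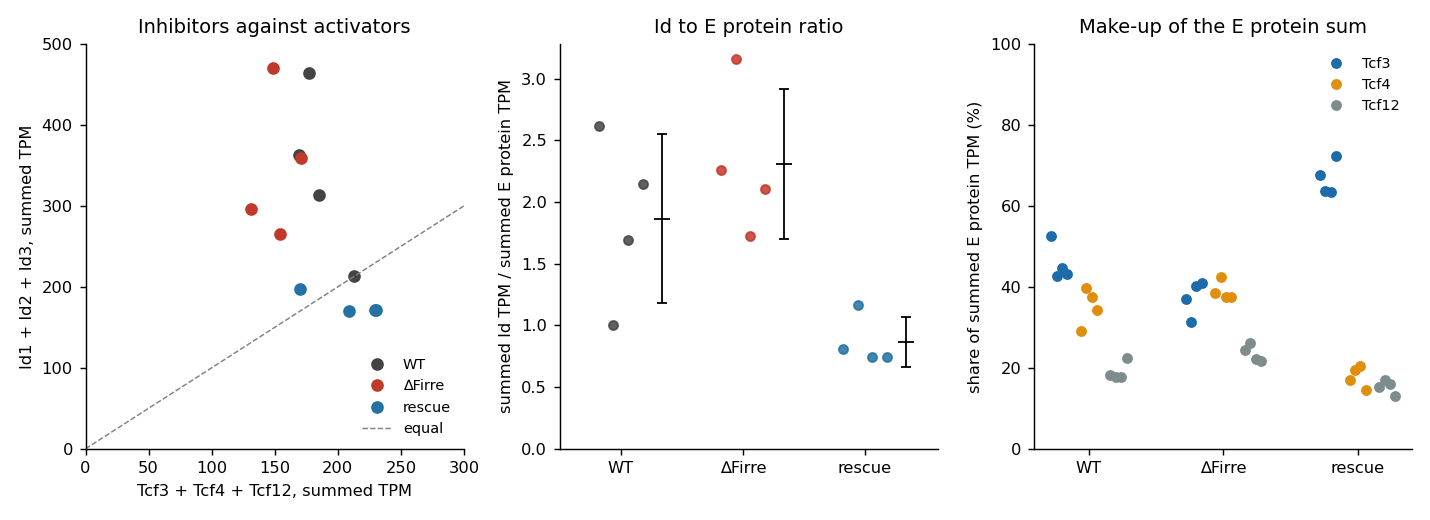
Summed TPM of Id1, Id2 and Id3 against the summed TPM of Tcf3, Tcf4 and Tcf12, the ratio of the sums with its mean ± SD, and the share of each E protein gene in the E protein sum in percent; points are the 12 libraries, and the dashed line marks equal sums. Firre rescue libraries have ratios of 0.741 to 1.16, those of WT are 1.01 to 2.61, and those of ∆Firre are 1.72 to 3.16.

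Of the genes of the partner complex, Lyl1 was higher in Firre rescue than in ∆Firre CLPs. It measured 149, 171, 128 and 144 TPM in WT (148 ± 17.6, n = 4), 81.2, 84.4, 118 and 99.7 TPM in ∆Firre (95.8 ± 16.8, n = 4), and 209, 134, 216 and 225 TPM in Firre rescue (196 ± 42.0, n = 4). All ∆Firre libraries were below all WT libraries, and Firre rescue replicate 2 fell within the WT range while the other 3 were above it. The difference was −0.63 (−0.996 to −0.27, unadjusted p = 0.00253) in ∆Firre against WT, which did not pass the test across all genes (adjusted p = 0.889), and −0.68 and −0.59 within the lower and the higher library number range. The study, with its own test on read counts, reported Lyl1 as significantly lower in ∆Firre CLPs and significantly higher in Firre rescue. Lyl1 was higher by 1.01 (0.65 to 1.38, adjusted p = 0.00208) in Firre rescue than in ∆Firre, and by 0.38 (0.01 to 0.74, adjusted p = 0.144) than in WT. Without Firre rescue replicate 2, the difference from WT was 0.55 (adjusted p = 0.0215). With the GC adjustment, Lyl1 did not pass against ∆Firre (0.28, adjusted p = 0.2098) and its difference from WT turned to −0.096 (adjusted p = 0.672).

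Tal1, the close relative of Lyl1 that is required for the first blood stem cells and for red cells and megakaryocytes, moved in the opposite direction in Firre rescue. It measured 41.8, 41.8, 34.4 and 27.3 TPM in WT (36.3 ± 6.94, n = 4), 31.9, 36.7, 38.0 and 26.5 TPM in ∆Firre (33.3 ± 5.23, n = 4), and 22.3, 13.2, 15.4 and 19.3 TPM in Firre rescue (17.6 ± 4.04, n = 4). WT and ∆Firre overlapped and all 4 Firre rescue libraries were below them. Tal1 fell by 0.90 against ∆Firre (−1.31 to −0.49, adjusted p = 0.00740) and by 1.01 against WT (−1.42 to −0.60, adjusted p = 0.00463), and the difference between ∆Firre and WT was −0.11 (−0.52 to 0.30). The ratio of Lyl1 to Tal1 was 4.17 ± 0.770 in WT, 2.93 ± 0.647 in ∆Firre CLPs and 11.3 ± 2.07 in Firre rescue, where its lowest library (9.39) was above the highest of the other groups (5.28). This ratio was not adjusted for GC content, and exons of Lyl1 and Tal1 lay at GC percentiles 98.9 and 69.6 of the tested genes. With the GC adjustment, Lyl1 did not pass against ∆Firre. Summed levels of 5 megakaryocyte markers were 69.1 to 243 TPM in WT, 49.1 to 89.8 TPM in ∆Firre CLPs and 3.77 to 36.0 TPM in Firre rescue, with 2 of 4 tested markers lower than in ∆Firre and 3 of 4 lower than in WT. Those of 7 stem cell markers were 89.6 to 108 TPM, 94.8 to 118 TPM and 60.6 to 74.5 TPM, with 2 of 4 tested lower than in ∆Firre and 3 of 4 lower than in WT. Of 8 erythroid markers, 6 were matched and tested, with sums of 14.6 to 69.6 TPM in WT, 21.2 to 109 TPM in ∆Firre CLPs and 17.3 to 121 TPM in Firre rescue. None of them was called against ∆Firre, and 1 (Hba-a2, 1.83, adjusted p = 0.0640) was higher than in WT. Basophils and mast cells also use Tal1, and the part of any of these cells in its level was not tested.

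Of the adaptor genes, Lmo2 was lower in Firre rescue and Ldb1 was not called. Lmo2, a gene of blood progenitors whose product bridges bHLH and GATA factors, measured 209.9, 274, 252 and 244 TPM in WT (245 ± 26.5, n = 4), 236, 252, 277 and 283 TPM in ∆Firre (262 ± 22.1, n = 4), and 162, 170.4, 174 and 189 TPM in Firre rescue (174 ± 11.2, n = 4). The Firre rescue libraries were again below all others, with a difference of −0.59 (−0.79 to −0.38, adjusted p = 0.00166) from ∆Firre and −0.49 (−0.69 to −0.28, adjusted p = 0.00540) from WT, against 0.10 (−0.10 to 0.30) between ∆Firre and WT. Ldb1, a broadly expressed adaptor that pairs with itself and can join distant DNA elements, measured 192, 235, 196 and 228 TPM in WT, 170.4, 177, 218 and 204 TPM in ∆Firre, and 235, 164, 269 and 242 TPM in Firre rescue. All groups overlapped, Firre rescue replicate 2 being the lowest of the 12 libraries and replicate 3 the highest. The differences of Ldb1 were −0.15 (−0.46 to 0.16) in ∆Firre against WT, 0.23 (−0.08 to 0.54, adjusted p = 0.291) in Firre rescue against ∆Firre and 0.08 (−0.23 to 0.39) against WT, none of which passed the test. Without Firre rescue replicate 2, Ldb1 was called higher than in ∆Firre (0.38, adjusted p = 0.0356). With the GC adjustment its differences turned to −0.27 (adjusted p = 0.151) from ∆Firre and −0.23 (adjusted p = 0.201) from WT.

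Counted over the 10 genes, none was called in ∆Firre against WT by limma, where 0.0207% of all tested genes were called, and limma-voom on the recovered reads called none either. Tcf3 and Lyl1 had an unadjusted p under 0.05, a level that 5.30% of all genes reached, and were the 2 of 10 whose libraries did not overlap, both lower in ∆Firre, where 5.33% of all genes did not overlap and 4.49% did so on the lower side. In Firre rescue against ∆Firre 7 of 10 were called, where 27.9% of all genes were called, with 3 higher (Tcf3, Id3 and Lyl1; background 8.58%) and 4 lower (Tcf4, Id2, Tal1 and Lmo2; background 19.3%). The libraries of these 7 did not overlap between the groups, as for 21.9% of all genes (6.31% higher and 15.6% lower). In Firre rescue against WT 5 of 10 were called, where 24.3% of all genes were called, with Tcf3 higher (background 4.82%) and Tcf4, Id2, Tal1 and Lmo2 lower (background 19.4%), and their libraries did not overlap either, as for 18.0% of all genes (3.55% higher and 14.5% lower). The median difference of the 10 genes in these comparisons was −0.14, −0.37 and −0.31, beside −0.06, −0.16 and −0.21 over all tested genes. The comparisons share libraries, so their values are set side by side and not counted as separate evidence. Because the 10 genes were chosen with earlier results of these data known, their counts are a description. Median-ratio rescaling brought the median of all genes from −0.16 to −0.05 in Firre rescue against ∆Firre and from −0.21 to −0.03 against WT, and moved the share of called genes that were higher from 30.7% to 50.2% and from 19.9% to 50.6%. Under this rescaling the 7 and the 5 genes were called in the same direction, and Ldb1 against ∆Firre (0.34, adjusted p = 0.0432) and Lyl1 against WT (0.57, adjusted p = 0.0198) were called higher as well.

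The GC content of the transcripts moved with the differences across all genes and sets the members apart from each other. Exons of Tcf3 (60.8% GC), Lyl1 (62.6%) and Ldb1 (59.3%) lay at the percentiles 97.6, 98.9 and 95.4 of the tested genes, whereas those of Tcf4 (44.1%), Tcf12 (44.9%) and Id2 (42.4%) lay at 21.0, 25.5 and 13.7. Tal1 (53.1%), Id1 (54.7%), Id3 (54.4%) and Lmo2 (54.8%) lay between them. With the genes in 4 bins of nearly equal size from low to high GC content, the median difference of all genes was −0.35, −0.21, −0.07 and 0.23 in Firre rescue against ∆Firre, and 0.01, −0.03, −0.09 and −0.21 in ∆Firre against WT. When every library was adjusted for exon GC (a step chosen after seeing the data), the fit left Tcf3 higher in Firre rescue than in ∆Firre by 0.70 (adjusted p = 0.00206) and Id2 (−0.79, adjusted p = 0.0240), Tal1 (−1.0, adjusted p = 0.00448) and Lmo2 (−0.79, adjusted p = 0.000158) lower, so that 4 of 10 genes were called. Lyl1 was then 0.28 (adjusted p = 0.2098), Tcf4 −0.45 (adjusted p = 0.102) and Id3 1.502 (adjusted p = 0.129), none of which passed. Against WT, Tcf3 (0.33, adjusted p = 0.0796), Tcf4 (−0.66, adjusted p = 0.0202), Id2 (−0.79, adjusted p = 0.0215), Tal1 (−1.08, adjusted p = 0.00281) and Lmo2 (−0.60, adjusted p = 0.000907) were called as before. The ∆Firre minus WT differences of Tcf3 and Lyl1 became −0.37 and −0.38. With the correction, the ratio of Id to E protein transcripts was 0.991 to 2.66 in WT, 1.61 to 2.76 in ∆Firre CLPs and 0.917 to 1.29 in Firre rescue.

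Of a list of genes known to be activated by E proteins, 10 of 16 rose in Firre rescue. Of 16 such genes (Rag1, Rag2, Dntt, Igll1, Vpreb1, Vpreb2, Vpreb3, Ebf1, Foxo1, Pax5, Cd79a, Cd79b, Blnk, Notch1, Ccr9 and Ptcra), all tested, 10 were higher and 1 was lower in Firre rescue than in ∆Firre, 10 were higher and none lower than in WT, and none was called between ∆Firre and WT by adjusted or unadjusted p. Over all tested genes, 8.58% were higher and 19.3% lower against ∆Firre, and 4.82% and 19.4% against WT. This list, like the others below, was chosen with earlier results of these data known, so its counts are a description. Their median difference was 0.96 against ∆Firre and 0.98 against WT. With the GC correction 10 and 11 genes were higher and none was lower. Vpreb1 and Igll1, which encode the surrogate light chain of the pre-B cell receptor, rose most against ∆Firre. Vpreb1 measured 28.4 to 59.97 TPM in WT, 28.0 to 40.3 TPM in ∆Firre CLPs and 147 to 257 TPM in Firre rescue, a difference from ∆Firre of 2.50 (1.98 to 3.02, adjusted p = 6.92e-05). Igll1 measured 18.4 to 41.3 TPM in WT, 19.6 to 39.9 TPM in ∆Firre CLPs and 93.4 to 210.4 TPM in Firre rescue, a difference of 2.43 (1.79 to 3.08, adjusted p = 0.000305). Against WT the largest rises were those of Vpreb1 (2.36, adjusted p = 0.000135) and Vpreb3 (2.34, adjusted p = 0.000826).

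The same list holds the regulators that act with E proteins in B-lineage entry. Ebf1, which works with E proteins to open B-lineage genes, measured 20.2 to 34.7 TPM in WT, 24.1 to 34.9 TPM in ∆Firre CLPs and 47.7 to 64.1 TPM in Firre rescue (1.03 against ∆Firre, adjusted p = 0.00280). Pax5, which commits cells to the B lineage, rose by 1.47 (adjusted p = 0.00119), and Rag1, a subunit of the recombinase of antigen receptor genes, rose by 0.73 (adjusted p = 0.00773); these 3 genes were singled out after their values were seen. The gene that was lower was Ccr9 (−0.75, adjusted p = 0.0649), a chemokine receptor gene, and it did not pass after the GC correction (adjusted p = 0.157). No gene of the list was called lower with median-ratio rescaling, quantile normalization, no filter on low values or an adjusted p of 0.05. The same held without ∆Firre replicate 9 or 12 or Firre rescue replicate 3 or 4. In the target list, 5 genes (Cd79a, Ebf1, Igll1, Pax5 and Vpreb1) also stand on the list of pro-B cell markers, all 7 of which were higher in Firre rescue than in either group, with sums of 190.5 to 372 TPM in WT, 248 to 318 TPM in ∆Firre CLPs and 741 to 1147 TPM in Firre rescue. B220, one of the lineage proteins used to leave cells out of the sort, is carried by pro-B cells. The part of pro-B cells in the levels of Tcf3 and its targets was not tested.

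**Figure D4:**
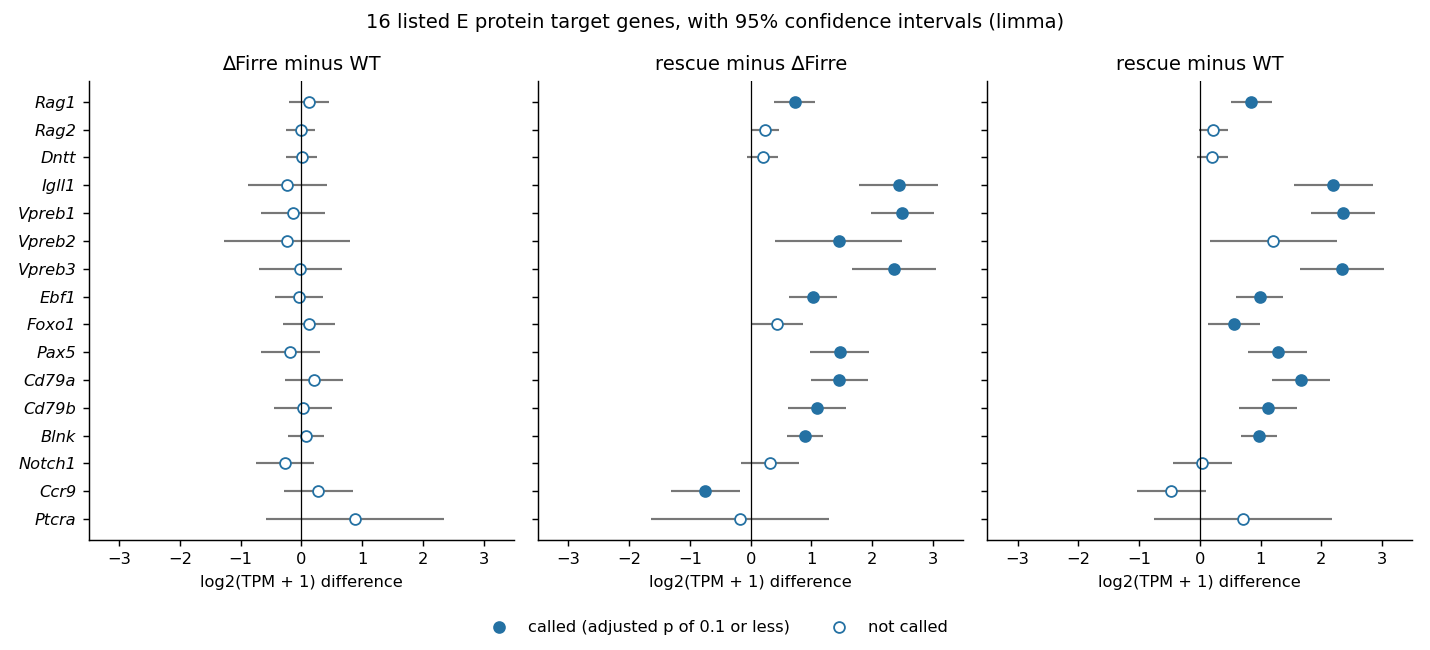
Log2 differences on the log2(TPM + 1) scale (horizontal axis) with 95% confidence intervals for the 16 E protein target genes in the 3 comparisons; filled points passed the limma test. None is filled in ∆Firre against WT, and in Firre rescue 10 are higher than in ∆Firre and 1, Ccr9, is lower.

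Genes whose products join LMO2 and LDB1 were counted next. Of 14 listed (Gata1, Gata2, Gata3, Ssbp2, Ssbp3, Ssbp4, Ldb2, Lmo1, Lmo3, Lmo4, Rlim, Runx1, Fli1 and Erg), 12 were tested, and in both comparisons of Firre rescue 1 was higher and 6 were lower, with medians of −0.42 against ∆Firre and −0.48 against WT. The shares over all tested genes were 8.58% higher and 19.3% lower against ∆Firre, and 4.82% and 19.4% against WT. Without Firre rescue replicate 4 the counts were 1 higher and 4 lower against ∆Firre and none higher and 4 lower against WT. Median-ratio rescaling made this 3 higher and 4 lower against ∆Firre and 2 higher and 3 lower against WT. None was called in ∆Firre against WT, where Ssbp4 had an unadjusted p of 0.0165 (difference −0.64). Gata2, a GATA factor of stem cells, basophils and mast cells, was at 0, 0.565, 0 and 0.413 TPM in the Firre rescue libraries, against 178, 20.8, 34.8 and 37.9 TPM in WT and 48.6, 40.0, 41.5 and 28.9 TPM in ∆Firre. Its difference was −5.04 (−6.11 to −3.97, adjusted p = 8.19e-05) from ∆Firre and −5.31 (adjusted p = 9.15e-05) from WT. Gata1, which acts in red cells, megakaryocytes and mast cells, was lower than in ∆Firre (−0.96, adjusted p = 0.0813) and than in WT (−1.49, adjusted p = 0.0161). Within WT, Gata2 and the sum of basophil and mast cell markers were both highest in replicate 6 and both lowest in replicate 8. Ms4a2, a subunit of the IgE receptor of those cells, was at 0 in 3 Firre rescue libraries. The part of basophils and mast cells in the level of Gata2 was not tested. Ssbp4, which encodes a protein that binds LDB1, was the gene that was higher, by 1.36 against ∆Firre (adjusted p = 0.00222) and 0.73 against WT (adjusted p = 0.0485), and neither passed after the GC correction (adjusted p = 0.208 and 0.782). After that correction 4 of the 12 genes were lower and none higher than in ∆Firre.

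**Figure D5:**
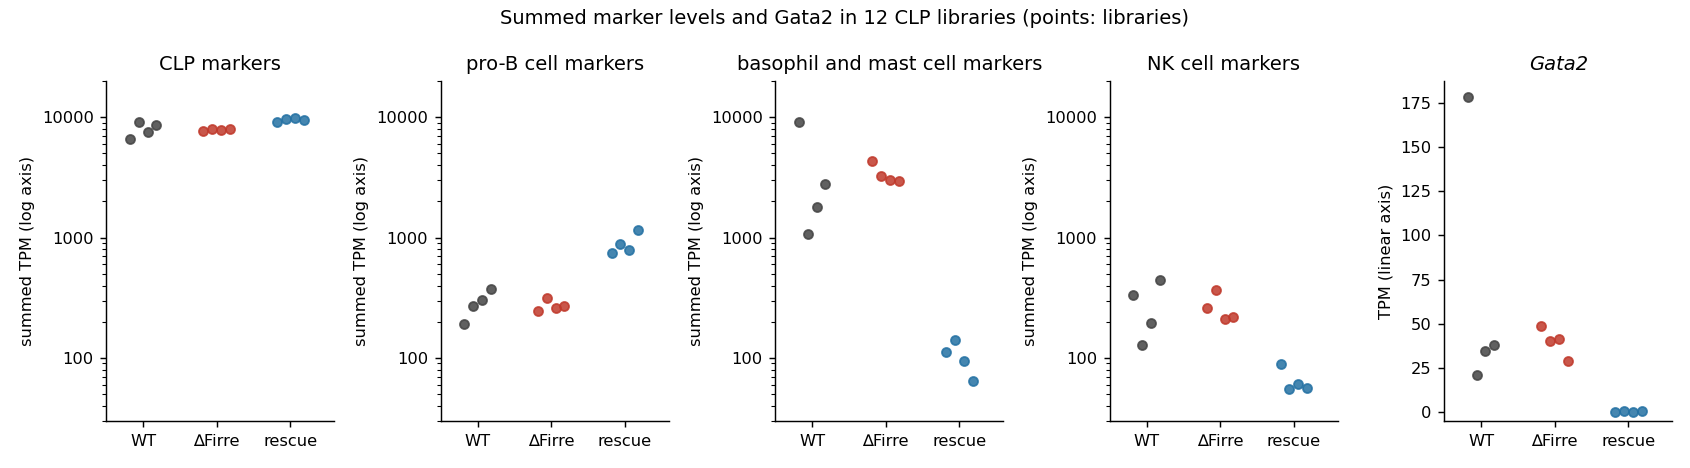
Summed TPM (vertical axes, log scale) of CLP, pro-B cell, basophil and mast cell, and NK cell markers, and TPM of Gata2 (linear scale), with 1 point for each of the 12 libraries. The CLP sums lie between 6555 and 9921 TPM in all libraries, the pro-B cell sums are highest in Firre rescue, and the other sums and Gata2 are lowest there.

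Among 9 co-regulators that E proteins recruit, 8 were tested and none was called in Firre rescue against ∆Firre (1 had an unadjusted p under 0.05, as did 33.6% of all genes), with a median of −0.19. Against WT, the histone acetyltransferase gene Crebbp (−0.58, adjusted p = 0.0660) and Cbfa2t2 (−0.36, adjusted p = 0.0951), a corepressor gene of the ETO family, were lower, as were 19.4% of all genes, whereas after median-ratio rescaling 1 gene of the list was called and was higher, and 2 were called higher against ∆Firre. Neither gene was called against WT with the replicate block, with only these groups in the fit, with no filter on low values or at an adjusted p of 0.05. The same held without WT replicate 11 or Firre rescue replicate 2. Only 1 gene of the list was lower without WT replicate 6, 8 or 10 or Firre rescue replicate 1 or 4, and with the GC adjustment. Without Firre rescue replicate 3, 4 genes of the list were lower than in WT and 3 lower than in ∆Firre. Without replicate 2, 1 was higher than in ∆Firre. Hdac1 and Hdac2, histone deacetylase genes with the highest mean levels of this list, lay at 128 and 140 TPM in WT, 124 and 138 TPM in ∆Firre, and 138 and 125 TPM in Firre rescue.

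Of 17 genes that act upstream of Id genes, 12 were tested. Egr1, a transcription factor gene of receptor signaling that is known to induce Id3, was at 22.5, 13.8, 17.1 and 10.7 TPM in Firre rescue, above all WT (2.6 to 3.99 TPM) and ∆Firre libraries (0.995 to 4.09 TPM). It was higher by 2.22 (1.54 to 2.90, adjusted p = 0.000780) than in ∆Firre and by 1.94 (adjusted p = 0.00212) than in WT. Tgfbr1, a receptor of TGFβ, was lower than in ∆Firre (−0.95, adjusted p = 0.00232) and than in WT (−0.73, adjusted p = 0.0106). Of the Smad genes, which carry TGFβ and BMP signals to the nucleus, Smad5 was lower than in ∆Firre (−0.35, adjusted p = 0.0305), and Smad5 (−0.36, adjusted p = 0.0288) and Smad4 (−0.37, adjusted p = 0.0487) were lower than in WT. Of the 12 genes, 1 was thus higher and 2 were lower than in ∆Firre, where 8.58% and 19.3% of all genes were, and 1 was higher and 3 were lower than in WT, where 4.82% and 19.4% were. The 1 higher and 3 lower genes against WT became 1 higher and 1 lower after median-ratio rescaling and with limma-voom, 1 higher and 2 lower with the GC adjustment, and 1 higher and 5 lower without Firre rescue replicate 3. Against ∆Firre, the 1 higher and 2 lower genes became 1 higher and 4 lower without that library and 1 higher and 3 lower with limma-voom. They became 1 higher and 1 lower with the exon GC adjustment and with the replicate block. None of the 12 was called in ∆Firre against WT, and none had an unadjusted p under 0.05 there.

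A list of other helix-loop-helix genes was read as well, and it leaves out several broadly expressed families. Of 30 listed, which include Id4, Tal2 and the lineage factors of nerve and muscle, 3 passed the filter (Bhlha15, Bhlhe40 and Hes1). Hes1, a target of Notch signaling that represses E protein activity in some settings, measured 17.5 to 23.6 TPM in WT, 12.8 to 21.5 TPM in ∆Firre CLPs and 24.8 to 37.5 TPM in Firre rescue. It was higher by 0.93 (adjusted p = 0.00679) than in ∆Firre and by 0.70 (adjusted p = 0.0277) than in WT, and Firre rescue libraries overlapped with neither group. With the replicate block, no gene of the list was called against WT. Without WT replicate 8 a second gene of the list was called, lower than in WT, and without Firre rescue replicate 3 a second gene was called lower than in either group.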

How the data were processed

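CLPs of 12 male mice were sequenced from poly(A)+ RNA as paired-end reads. According to the labels and the study's methods, the authors trimmed the reads with cutadapt, mapped them to mm10 with TopHat2 2.1.1, obtained reads per gene of the Gencode annotation from featureCounts, and gave TPM for 47643 genes in the deposited table. The gene length and strand setting behind TPM are not given in the sources used here, so reads of overlapping antisense genes cannot be separated. All 12 columns were used.

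The 14479 genes with a mean of at least 1 TPM over all libraries were taken to log2 of the deposited TPM + 1, and limma 3.58.1 (R 4.3.3) was fitted with a mean-variance trend and the 3 groups in one fit. P-values were two-sided, Benjamini-Hochberg adjusted over all tested genes, and called at 0.1 or less. Whole reads were recovered from the TPM steps for 99.984% of genes above 0 in a library (tolerance 0.05 reads) and served for depth and as an alternative. They carry no molecular identifiers and cover counting error only. Mice of a group are separate animals.

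GC content was taken from the merged exons of an older Gencode annotation on genome NCBIM37, joined by gene identifier (13086 tested genes, 90.4%) and corrected per library by splines with 4 degrees of freedom. Symbols were matched for 32799 identifiers (68.8%), and positions and promoter windows came from RefSeq tables of GRCm38.p6. The members and lists were chosen with earlier results of these data known. Named were all 10 members, markers and Firre where they bear on a member, and from each list the genes called, limited to the 2 largest rises and 2 largest falls where more than 4 were called, or the 2 with the highest mean level where none was called. Ebf1, Pax5 and Rag1 of the E protein targets were named beyond this rule, after their values were seen. Alternatives were other pseudocounts, filters, scalings, designs and thresholds, a replicate block, a library range block and each library left out. GC corrections and limma-voom were chosen after seeing the data. Python 3.11.15, numpy 2.4.6, pandas 2.3.3 and matplotlib 3.10.9 were used.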

Additional observations from a re-analysis of the deposited data

Results flagged for a closer look

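Lyl1 in Firre rescue replicate 2 stood apart from its group. Its log2(TPM + 1) value was 7.07, against 7.72 to 7.82 in the other 3 Firre rescue libraries, and the gap to the nearest of them was 0.863 of the whole range, above Dixon's critical value for 4 samples. It was the 1 of 30 groups of 4 for which this held, where chance alone gives about 1 in 20, or 1.5 of 30. The same library had the lowest Tcf3, Tcf4, Tcf12, Id1, Tal1 and Ldb1 levels of the Firre rescue group, and its highest Id2 and Id3 levels. Without it, Lyl1 was higher in Firre rescue than in WT by 0.55 (adjusted p = 0.0215), and with it by 0.38 (adjusted p = 0.144).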

How the results depend on the processing

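Tcf3 higher and Id2, Tal1 and Lmo2 lower in Firre rescue kept direction and call against both other groups under every alternative run, with each library left out included. Tcf12 in Firre rescue against WT turned from −0.14 to 0.042 with median-ratio rescaling, 0.035 with quantile normalization and 0.049 with limma-voom. The exon GC correction turned Tcf12 (−0.061), Id2 (−0.0054) and Ldb1 (0.041) in ∆Firre against WT, Tcf12 (0.035) and Ldb1 (−0.27) in Firre rescue against ∆Firre, and Lyl1 (−0.096) and Ldb1 (−0.23) against WT. The correction by coding transcripts gave −0.063, −0.012 and 0.037, then 0.053 and −0.26, then −0.044 and −0.23, for the same genes in the same order. With single libraries left out, ∆Firre minus WT ranged from −0.034 to 0.057 for Tcf12, −0.71 to 0.064 for Id1, −0.12 to 0.24 for Id2 and −0.78 to 0.11 for Id3, and Firre rescue minus WT from −0.011 to 0.23 for Ldb1. None of these values was called.

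Over all genes, 3 were called in ∆Firre against WT, 6 with no filter, 1 with only the 2 groups in the fit, 1 with the library number range as a block, none (0) with the coding transcript GC correction or limma-voom, and 1 to 5 with single libraries left out. In Firre rescue against ∆Firre 4043 were called, 2682 at an adjusted p of 0.05, 1990 with the exon GC correction (4 members) and 1913 with that by coding transcripts. In Firre rescue against WT 3512 were called and 2263 with only the 2 groups in the fit. The study used its own test on read counts and the same threshold of 0.1. It reported more genes both in ∆Firre against WT and in Firre rescue against ∆Firre. Mouse numbers 8 and 11 occur in both WT and ∆Firre, and these libraries form the lower library number range. Deviations of same-numbered libraries correlated at −0.03 and −0.04, and those of libraries with unlike numbers at 0.02 and −0.05. Such correlations cannot tell whether mice of the same number were handled together. With a replicate block 2113 genes were called in Firre rescue against WT, and 0, 6 and 5 members in the 3 comparisons, with Id3 lost against ∆Firre (1.21, adjusted p = 0.224). Leaving out single libraries gave 6 to 8 members called against ∆Firre and 5 to 7 against WT. Id3 against ∆Firre was also lost with a pseudocount of 0.1 (adjusted p = 0.110), no filter (0.132) and limma-voom (0.114), and against WT it was called without WT replicate 10 (0.0911) and without Firre rescue replicate 3 (0.0638). The partner genes called against WT fell from 7 to 4 without Firre rescue replicate 4. The cause of these changes was not tested.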
